A study of Mus musculus with 6 samples.

Results

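Metallothioneins and the zinc transporters that act with them were followed in mouse pancreatic islets after deletion of the transcription factor gene Klf4 from alpha cells. The set was given as a list of 10 genes, 3 metallothioneins (Mt1, Mt2 and Mt3), the zinc sensor Mtf1, 3 zinc exporters (Slc30a1, Slc30a5 and Slc30a7) and 3 zinc importers (Slc39a8, Slc39a10 and Slc39a14), and all 10 were found by symbol among the 55536 genes of the count table. All 10 had enough counts to enter the fit and were given an adjusted p-value. Mt1 and Mt2 rose in the Klf4-alphaKO islets, by 39.7% and 55.2%, and the other 8 genes did not pass the test. Mt2 passed in both tests that were run and Mt1 in one of them, as given below.

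Zinc is stored in high amounts in the insulin granules of beta cells and is moved between the cytosol, the organelles and the outside of the cell by membrane transporters. Metallothioneins are small cysteine-rich proteins of the cytosol that bind zinc and copper and take up reactive oxygen species. MTF1 is a zinc finger transcription factor that senses free zinc and then switches on the genes of metallothioneins 1 and 2 and of the cell surface exporter ZnT1 (Slc30a1). Transporters of the Slc30 (ZnT) family lower cytosolic zinc and those of the Slc39 (ZIP) family raise it. Mt1 and Mt2 are also known as targets of glucocorticoid and of inflammatory signals.

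Whole islets of C57B1/6J mice, the strain as the design text spells it, were taken from 2 genotypes with 3 libraries each. Klf4-alphaKO islets had the genotype Klf4fl/fl;Gcg-iCre, and control islets had the genotype Klf4+/+;Gcg-iCre, so the Cre recombinase driven from the glucagon gene was present in both and acts in alpha cells, a minority of islet cells. Age, sex and the number of mice behind a library are not given in the labels, so the p-values measure the spread between these libraries. In whole islets, a change in the number of cells of a type and a change in the RNA per cell cannot be told apart.

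Libraries held 101277200 to 110243918 counts. The tissue carried islet hormone genes at high levels, with Ins2 the highest of 10 beta-cell genes in all 6 libraries. The level of Klf4 itself overlapped between the groups, at 2014.5 to 3148 normalized counts in controls and 2277 to 2540 in Klf4-alphaKO (DESeq2 adjusted p = 0.774). Xist lay between 77938 and 108105 normalized counts in the controls and between 12.4 and 30.2 in Klf4-alphaKO, while the Y-linked gene Ddx3y had 0 counts in every control and 5599 to 6265 in Klf4-alphaKO. This is the pattern of female controls and male Klf4-alphaKO mice. Every difference below is therefore one of genotype and, by these transcripts, of sex at once, and the 2 cannot be told apart. Among genes with fewer than 60 counts in every library, 82.5% to 85.8% of the counts above 0 were even numbers. Counting both mates of a read pair gives such a pattern, so a count may not be an independent molecule. Across all genes, 389 of 17797 passed an adjusted p of 0.05 in DESeq2 (2.19%), 272 of them higher (1.53%) and 117 lower (0.657%). In edgeR 29 of 25210 passed (0.115%), 24 of them higher (0.0952%) and 5 lower (0.0198%). At an unadjusted p under 0.05 the numbers were 2269 in DESeq2 and 2391 in edgeR.

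Mt1 and Mt2 lie side by side on chromosome 8 with Mt3 upstream of them (GENCODE M21, GRCm38, all on the plus strand). Mt3 spans 94152607 to 94154146, Mt2 spans 94172664 to 94173568 and Mt1 spans 94179082 to 94180327, so the annotated starts of Mt2 and Mt1 are 6418 bases apart. The 250 bases before the RefSeq start site of each gene (GRCm38.p6) are shown because Mt1 and Mt2 moved together and Mt3 did not pass the test. Capitals mark the core of the metal response element, the motif bound by MTF1, searched as TGCACNC and as TGCGCNC on both strands, with matches that overlap but start at different bases counted separately.
Mt1, chr8:94178839-94179088, plus strand: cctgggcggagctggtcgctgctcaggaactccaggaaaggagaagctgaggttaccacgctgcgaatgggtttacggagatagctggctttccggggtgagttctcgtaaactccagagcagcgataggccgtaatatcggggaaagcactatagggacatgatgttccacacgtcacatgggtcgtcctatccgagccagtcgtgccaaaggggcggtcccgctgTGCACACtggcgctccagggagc
Mt2, chr8:94172368-94172617, plus strand: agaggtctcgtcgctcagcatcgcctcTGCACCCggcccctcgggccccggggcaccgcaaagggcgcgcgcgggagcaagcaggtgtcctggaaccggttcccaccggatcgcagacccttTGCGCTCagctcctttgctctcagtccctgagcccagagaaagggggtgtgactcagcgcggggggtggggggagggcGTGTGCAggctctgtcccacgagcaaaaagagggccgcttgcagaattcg
Mt3, chr8:94152357-94152606, plus strand: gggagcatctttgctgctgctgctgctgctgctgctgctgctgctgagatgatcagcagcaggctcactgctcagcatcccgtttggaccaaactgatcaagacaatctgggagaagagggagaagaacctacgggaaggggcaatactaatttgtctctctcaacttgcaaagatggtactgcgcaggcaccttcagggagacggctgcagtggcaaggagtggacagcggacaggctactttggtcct
Slc30a1, chr1:191906531-191906780, plus strand: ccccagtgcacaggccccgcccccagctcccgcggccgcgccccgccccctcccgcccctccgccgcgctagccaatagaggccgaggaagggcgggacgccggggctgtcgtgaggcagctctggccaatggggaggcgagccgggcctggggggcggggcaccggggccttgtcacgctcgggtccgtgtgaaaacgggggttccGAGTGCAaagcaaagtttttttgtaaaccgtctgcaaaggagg

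Mt2 held the motif at 3 positions of these 250 bases, beginning 223, 128 and 50 bases before the start site, Mt1 and Slc30a1 held it at 1 position each, 23 and 43 bases before it, and Mt3 held none. Of 32851 windows of the same length over all RefSeq genes, 21.4% held at least 1 match and 1.26% held at least 3. With the 50 bases after the start site included, the windows held 4 positions for Mt2, 3 for Mt1, 2 for Slc30a1 and 1 for Mt3, and 1.97% of all windows of 300 bases held at least 3. Start sites differ between annotations. GENCODE has Mt1 transcripts that start 122 and 152 bases downstream of the RefSeq start and Mt2 transcripts that start 46 and 242 bases downstream of it. The bases directly before these later starts lie outside the 250 bases shown, so the counts of positions do not rank the genes. A match of these letters is a description of the sequence and does not show binding. Windows were found for 9 of the 10 genes, and Slc30a5 and 1 of the 2 windows of Slc39a8 also held 1 match, while those of Slc30a7, Mtf1 and Slc39a10 held none.

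Mt1 encodes the major metallothionein isoform of most tissues together with Mt2. In control replicates 1 to 3 it was measured at 17413, 16578 and 15373.5 normalized counts (counts divided by the size factor of each library), and in Klf4-alphaKO replicates 1 to 3 at 21372, 21538 and 26038. Every Klf4-alphaKO library lay above every control, and replicate 3 was the highest. Mt1 averaged 16455 ± 1025 in controls and 22983 ± 2647 in Klf4-alphaKO (SD, n = 3 each). This is 0.48 ± 0.10 on the log2 scale (SE), with an adjusted p of 0.000148 in DESeq2. In edgeR's quasi-likelihood test the log2 fold change of Mt1 was 0.48 and its adjusted p was 0.166, so that call was lost there.

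Mt2 is its close partner, with a larger fold change here. Control replicates 1 to 3 held 7303, 7029 and 6474 normalized counts, and Klf4-alphaKO replicates 1 to 3 held 10438, 9712 and 12137.5. The groups did not overlap, and replicate 3 was again the highest of the Klf4-alphaKO libraries. Mt2 averaged 6935.5 ± 422 in controls and 10762.5 ± 1245 in Klf4-alphaKO (SD, n = 3 each). The difference was 0.63 ± 0.10 on the log2 scale (SE), with an adjusted p of 6.64e-08 in DESeq2 and 0.0496 in edgeR. Of all 15811 genes with a mean of at least 50 normalized counts, 18% had groups that did not overlap, and 9.42% did so with Klf4-alphaKO above. Among the 9609 genes with a mean of at least 1000, 0.895% had a log2 fold change at least as high as that of Mt2 and 1.33% one at least as high as that of Mt1.

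The count of Mt2 has a limit that Mt1 does not share. An antisense gene on the opposite strand, Gm45774, covers 73.5% of the 588 exon bases of Mt2, and whether the counting used strand is not given in the sources used here, so reads of the 2 genes may not have been separated. Gm45774 held 103 to 149 normalized counts in the 6 libraries. Of the 50-base stretches of the Mt2 transcripts, 45.8% also occur in a transcript of another gene on either strand, while none of those of Mt1 do. That share includes the overlap with Gm45774 and is not a separate limit from it. Mt1 and Mt2 share no stretch of 50 bases.

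Mt3, the metallothionein known chiefly from brain, was low. Its counts were 101.2, 109.4 and 174.0 in controls and 100.1, 101.1 and 151.7 in Klf4-alphaKO. Replicate 3 was the highest in both groups, and the groups overlapped. The log2 fold change was -0.12 ± 0.32 (SE; adjusted p = 0.959 in DESeq2), with a 95% confidence interval from -0.74 to 0.50, an interval that holds the change of Mt1 (0.48) and not that of Mt2 (0.63). The sign turned to 0.16 without control replicate 3.

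**Figure D1:**
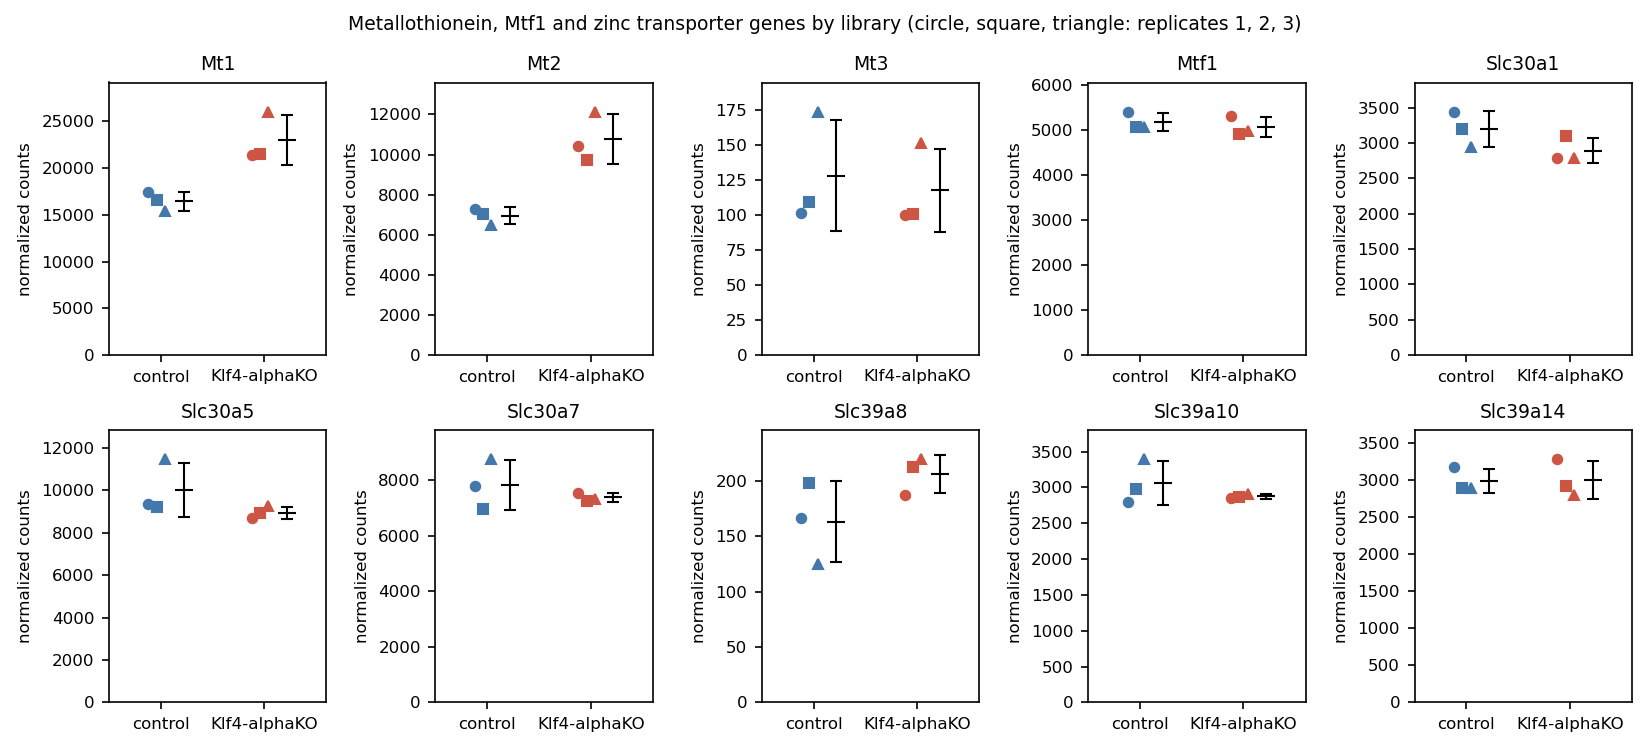
Normalized counts of the 10 genes in each library (vertical axes from 0; control in blue, Klf4-alphaKO in red; circles, squares and triangles are replicates 1, 2 and 3; the black bar is the mean ± SD, n = 3). The groups are apart for Mt1 (15373.5 to 17413 against 21372 to 26038) and Mt2 (6474 to 7303 against 9712 to 12137.5) and overlap for the other 8 genes.

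The sensor and the exporter of the same circuit were then examined. Mtf1 was measured at 5398, 5060 and 5047 normalized counts in controls and at 5313, 4895 and 4967.5 in Klf4-alphaKO, with overlapping groups. Its log2 fold change was -0.03 ± 0.08 (SE; adjusted p = 0.955 in DESeq2) and the 95% confidence interval ran from -11.6% to 8.41%. Slc30a1, which carries zinc out across the cell surface and is induced by MTF1, was at 3442, 3203 and 2941 in controls and at 2784, 3096 and 2790 in Klf4-alphaKO. It lay lower on average, with overlapping groups, at a log2 difference of -0.14 ± 0.09 (SE; adjusted p = 0.619 in DESeq2), and of -0.09 without control replicate 1. The upper end of its 95% confidence interval was 2.75%, below the lower ends for Mt1 (22.6%) and Mt2 (35.8%).

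Ratios of counts within a library do not depend on size factors, and 3 of them were computed after the values had been seen. Mt1 stood at 5.06, 5.18 and 5.23 counts per Slc30a1 count in controls and at 7.68, 6.96 and 9.33 in Klf4-alphaKO. Mt2 stood at 2.12, 2.20 and 2.20 per Slc30a1 count in controls and at 3.75, 3.14 and 4.35 in Klf4-alphaKO. Both ratios were nearly level over the controls and were higher in each Klf4-alphaKO library.

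Mt2 relative to Mt1 was compared in the same way. The controls held 0.419, 0.424 and 0.421 Mt2 counts per Mt1 count, a spread of 0.00234 (SD, n = 3), and the Klf4-alphaKO libraries held 0.488, 0.451 and 0.466. The means were 0.421 and 0.469, and the groups did not overlap. The exact two-sided permutation test gave p = 0.1 for each of the 3 ratios, the smallest that 3 against 3 libraries allow, and p = 0.1 after Benjamini-Hochberg adjustment over the 3.

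**Figure D2:**
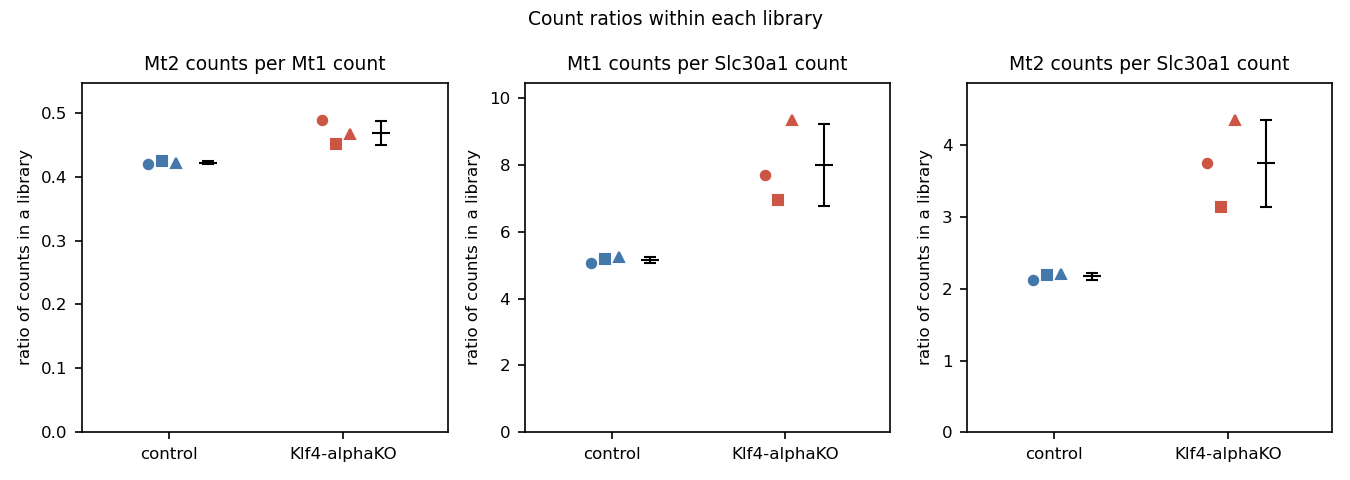
Ratios of raw counts in each library (vertical axes from 0; control in blue, Klf4-alphaKO in red; circles, squares and triangles are replicates 1, 2 and 3; black bars are mean ± SD, n = 3). Mt2 per Mt1 lies at 0.419 to 0.424 in controls and 0.451 to 0.488 in Klf4-alphaKO, and both metallothioneins are higher relative to Slc30a1 in all Klf4-alphaKO libraries.

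Exporters of the secretory pathway, Slc30a5 (ZnT5) and Slc30a7 (ZnT7), load zinc into the Golgi and early secretory compartments. Slc30a5 was measured at 9340, 9220 and 11471 normalized counts in controls and at 8682.5, 8918 and 9248.5 in Klf4-alphaKO. Control replicate 3 stood above the other 5 libraries, and the lowest control fell just inside the Klf4-alphaKO range. The log2 fold change was -0.16 ± 0.10 (SE; adjusted p = 0.566 in DESeq2) with a 95% confidence interval from -21.6% to 2.01%, and it was -0.05 without control replicate 3. Slc30a7 was at 7772, 6954 and 8750 in controls and at 7537, 7251 and 7329 in Klf4-alphaKO, a narrower range inside that of the controls. Its log2 fold change was -0.09 ± 0.09 (SE; adjusted p = 0.84 in DESeq2), with an interval from -17.0% to 7.01%, and 0.0023 without control replicate 3. Part of the Slc30a7 transcript, 15.3% of its 50-base stretches, also occurs in transcripts of other genes on either strand. That share includes 2 processed pseudogenes on its opposite strand, which cover 5.73% and 10.5% of its exon bases.

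The 3 importers on the list bring zinc, and for Slc39a8 (ZIP8) and Slc39a14 (ZIP14) also manganese and iron, into the cytosol. Slc39a8 was low, at 166.6, 197.8 and 125.2 normalized counts in controls and at 187.0, 212.4 and 219.5 in Klf4-alphaKO. Its Klf4-alphaKO values lay in the upper part of a range that overlapped the controls, and the log2 fold change was 0.34 ± 0.24 (SE; adjusted p = 0.669 in DESeq2) with an interval from -8.40% to 74.0%. It was 0.18 without control replicate 3 and 0.50 without control replicate 2. Slc39a10 (ZIP10), a plasma membrane importer known to be repressed by MTF1, was at 2800, 2976 and 3394 in controls and at 2848, 2867 and 2908 in Klf4-alphaKO. The Klf4-alphaKO libraries all fell within the control range, with a log2 difference of -0.09 ± 0.09 (SE; adjusted p = 0.835 in DESeq2), and it was -0.15 without control replicate 1 and -0.0068 without control replicate 3. Slc39a14, an importer known to be induced by interleukin-6 in liver, was at 3179, 2891 and 2896 in controls and at 3280, 2912 and 2792 in Klf4-alphaKO. The Klf4-alphaKO range held that of the controls, and the log2 fold change was 0.0032 ± 0.094 (SE; adjusted p = 0.996 in DESeq2) with an interval from -11.8% to 13.9%. The sign of the Slc39a14 value turned in 3 of the 6 fits that left out a library.

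Scaled to annotated exon length and library total (RPKM), Mt1 and Mt2 stood far above the other 8 genes. Mt1 was at 126 ± 11.4 in controls and 177 ± 23.3 in Klf4-alphaKO, and Mt2 at 113 ± 9.95 and 176 ± 23.5 (SD, n = 3 each). Their ranges over the 6 libraries overlapped. The exon length of Mt1, 1246 bases, equals its whole gene span because stretches that are intron in one annotated transcript are exon in another, so its level per length is an underestimate for the spliced transcript. Slc30a5 came next at 13.1 ± 1.37 RPKM in controls, then Slc30a7 (6.72), Slc30a1 (5.83), Mtf1 (5.55) and Slc39a10 (4.79), where neighbours in the order overlapped over the 6 libraries among these 4. Slc39a14 (2.71), Mt3 (1.14) and Slc39a8 (0.204) followed without overlap over the 6 libraries.

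The wider family counts 28 genes, 4 metallothioneins, 10 Slc30 and 14 Slc39 genes, of which 19 are not among the 10. Of these 19, 15 were given an adjusted p in DESeq2, 1 was higher and 0 were lower, with a median log2 fold change of 0.04 against -0.0061 over all genes given an adjusted p. Over the 10 listed genes the median was -0.06, with 2 higher and 0 lower. Slc30a8 (ZnT8), which loads zinc into insulin granules and is the most abundant zinc transporter of beta cells, was at 506 ± 51.5 RPKM in controls and 488 ± 40.2 in Klf4-alphaKO (SD, n = 3). Its libraries ran from 92647 to 111620 normalized counts in controls and from 89397 to 108875 in Klf4-alphaKO, with a log2 difference of -0.06 ± 0.10 (SE; adjusted p = 0.93 in DESeq2). The 9 other family genes with a mean of at least 1000 normalized counts that are not on the list (Slc30a4, Slc30a6, Slc30a9, Slc39a1, Slc39a3, Slc39a6, Slc39a9, Slc39a11 and Slc39a13) had log2 fold changes between -0.08 and 0.15 and did not pass. With 1 library left out, the values of the 9 ran from -0.12 (Slc39a6) to 0.23 (Slc39a11), both without control replicate 2. Without control replicate 3 Slc39a3 was at 0.19 and did not pass, and Slc39a9 passed (0.19, adjusted p = 0.0489 in DESeq2), while Slc30a6 was at 0.16 without Klf4-alphaKO replicate 2 and did not pass. Slc30a3, Slc30a10, Slc39a12 and Mt4 were too low for an adjusted p. The low level of Slc39a7 is uncertain, since another gene on its strand covers 80.7% of its exon bases.

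Slc39a5 (ZIP5), an importer known from the basolateral membrane of gut and pancreatic acinar cells and from liver, was the family member outside the list that passed. It was measured at 206.3, 505.0 and 241.9 normalized counts in controls and at 563.8, 808.5 and 609.7 in Klf4-alphaKO, with control replicate 2 close to the lowest Klf4-alphaKO library and the groups apart. The log2 fold change was 1.06 ± 0.29 (SE; adjusted p = 0.0167 in DESeq2, edgeR adjusted p = 0.338). It passed in DESeq2 without control replicate 2 (1.56) and did not pass when any of the other 5 libraries was left out (0.82 to 1.16; adjusted p = 0.0862 to 0.342).

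**Figure D3:**
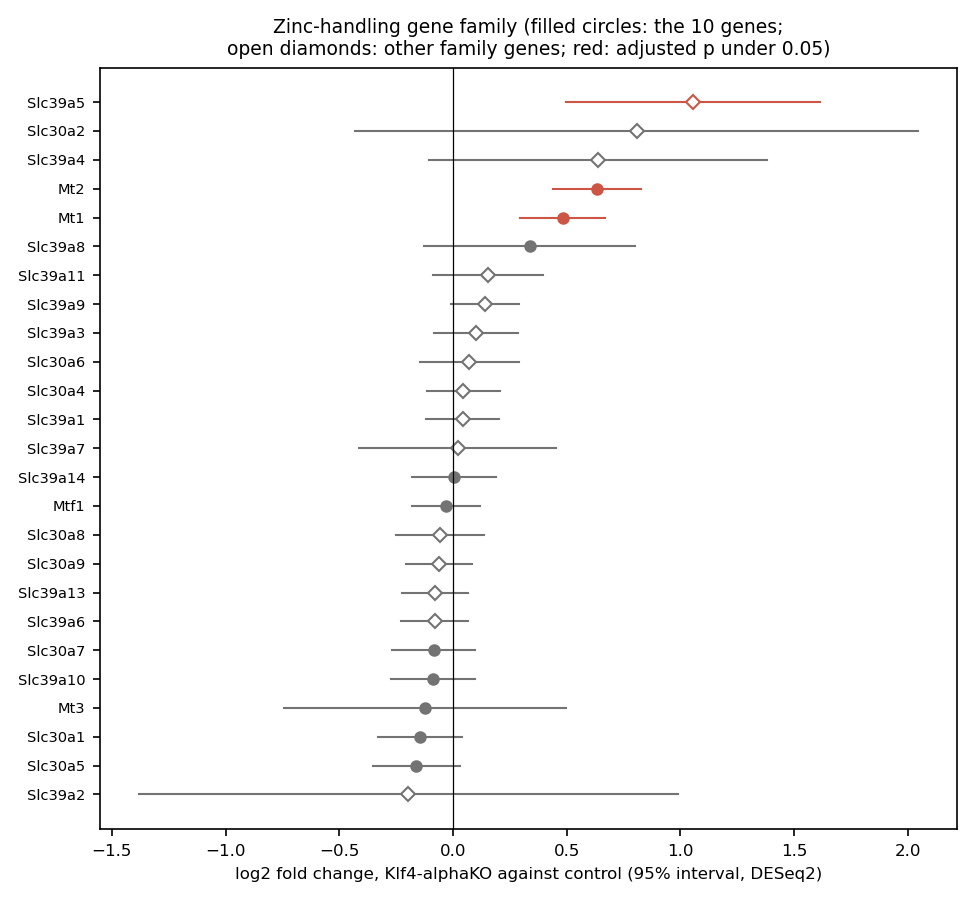
DESeq2 log2 fold changes, Klf4-alphaKO against control, with 95% confidence intervals for Mtf1 and the 24 family genes that were given an adjusted p (filled circles, the 10 listed genes; open diamonds, the others; red, adjusted p under 0.05). Mt1 (0.48), Mt2 (0.63) and Slc39a5 (1.06) are the red points, and the intervals of the other genes include 0.

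Acinar markers had a similar profile to Slc39a5. The summed level of 9 digestive enzyme genes was 635312, 1218642 and 600492 normalized counts in controls and 1661086, 2153445 and 1518538.5 in Klf4-alphaKO, although none of the 9 passed in DESeq2 (median log2 fold change 1.15). Slc39a5 amounted to 0.325 to 0.414 counts per 1000 acinar counts in controls and to 0.339 to 0.402 in Klf4-alphaKO, so the ratio overlapped between the groups.

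Markers of other cells also differed between the groups. Of 9 mesenchymal genes, 5 rose (Col1a1, Col1a2, Col3a1, Dcn and Pdgfra) in DESeq2, while Lum, Pdgfrb and the pericyte and smooth muscle genes Rgs5 and Acta2 did not pass. In edgeR 3 of the 9 passed, and Col3a1 (adjusted p = 0.0511) and Dcn (adjusted p = 0.16) did not. The summed level of the 9 was 83838 to 96859 normalized counts in controls and 125620 to 131116 in Klf4-alphaKO. Per 1000 mesenchymal counts, Mt1 stood at 171 to 203 in controls and 163 to 207 in Klf4-alphaKO, and Mt2 at 72.6 to 85.0 and 76.1 to 96.6, so both ratios overlapped. Per 1000 acinar counts they overlapped as well, with Mt1 at 13.6 to 27.4 in controls and 10 to 17.1 in Klf4-alphaKO, and Mt2 at 5.77 to 11.5 and 4.51 to 7.99. The ratios to beta-cell, endothelial and alpha-cell genes did not overlap. Per 1000 counts of the 10 beta-cell genes Mt1 ran from 0.704 to 0.927 in controls and from 1.008 to 1.24 in Klf4-alphaKO. Mt2 ran from 0.296 to 0.389 and from 0.455 to 0.579. Per 1000 counts of the 7 endothelial genes Mt1 ran from 149 to 193 and from 196 to 270, and Mt2 from 62.8 to 81.8 and from 88.35 to 125.8. Per 1000 counts of the 10 alpha-cell genes, whose sum was itself lower in Klf4-alphaKO, Mt1 ran from 2.785 to 3.90 and from 5.70 to 8.27. For Mt2 these ranges were 1.18 to 1.63 and 2.57 to 3.85. The part of mesenchymal and acinar cells in the metallothionein result was not tested.

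Among 10 alpha-cell genes, 3 were lower in DESeq2 (Gcg, Irx2 and Ttr) and 7 did not pass. Their summed level, carried by Gcg, was 4144974 to 5952022 normalized counts in controls and 3078038 to 3776935 in Klf4-alphaKO. Of 10 beta-cell genes 1 was lower, the transcription factor gene Nkx6-1 (log2 fold change -0.23, adjusted p = 0.0314 in DESeq2), and their sum, carried by Ins1 and Ins2, lay at 18775058 to 21839918.5 in controls and 20951988 to 21354009 in Klf4-alphaKO. Of the 5 delta genes 1 was lower, the 1 PP-cell gene did not pass, of the 7 duct genes 2 were higher, and none of 7 endothelial, 4 Schwann and 9 acinar genes passed. Among 8 leukocyte genes 1 of 6 given an adjusted p was higher, and the adipocyte markers Adipoq, Plin1 and Cfd were at or near 0 in all libraries while Fabp4 was higher. These calls are from DESeq2, and in edgeR 0 genes of the alpha, beta, delta, duct, leukocyte, adipocyte and hepatocyte lists passed.

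Transcripts of liver, a tissue rich in metallothioneins, were uneven over the Klf4-alphaKO libraries. The sum of 14 hepatocyte genes was 447 to 692 normalized counts in controls and 122939, 4670 and 529.9 in Klf4-alphaKO replicates 1 to 3, and 6 of the 8 given an adjusted p were higher in DESeq2. Mt1 and Mt2 were highest in Klf4-alphaKO replicate 3. Without Klf4-alphaKO replicate 1 the log2 fold changes were 0.53 for Mt1 (DESeq2 adjusted p = 0.000931) and 0.66 for Mt2 (DESeq2 adjusted p = 3.53e-05). The part of liver RNA in the metallothionein result was not tested.

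**Figure D4:**
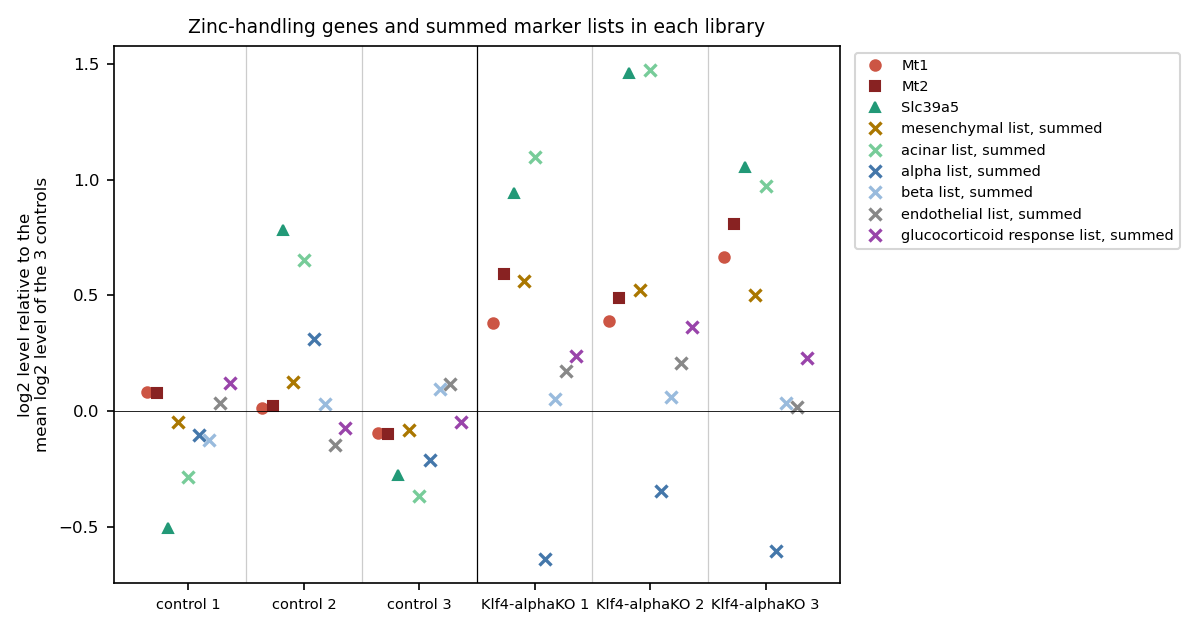
Level of Mt1, Mt2 and Slc39a5 and the summed level of 6 gene lists in each library, as log2 relative to the mean log2 of the 3 controls (filled symbols, genes; crosses, lists; points within a library are spread sideways for legibility). Slc39a5 lies close to the acinar list in each library, and Mt1 and Mt2 are above all controls in the 3 Klf4-alphaKO libraries, as are the mesenchymal, acinar and glucocorticoid response lists.

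Other genes described as MTF1 targets were compared. Of 6 such genes, all given an adjusted p, 1 was lower and 0 were higher, with a median log2 fold change of -0.03. The one that passed was Slc40a1, the cellular iron exporter ferroportin, at 5745, 5100 and 6314 normalized counts in controls and 3936.5, 4559 and 3503 in Klf4-alphaKO. Every Klf4-alphaKO value was below every control, and the log2 fold change was -0.52 ± 0.12 (SE; adjusted p = 0.00143 in DESeq2, edgeR adjusted p = 0.176). Its DESeq2 adjusted p was 0.0546 without Klf4-alphaKO replicate 1. Gclc, which makes the first step of glutathione synthesis, was level at -0.02, and Ndrg1 at 0.01.

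Glucocorticoid response genes were compared because Mt1 and Mt2 are known targets of that hormone. Of 12 genes, 6 were higher and 0 lower in DESeq2, with a median log2 fold change of 0.35 against -0.0061 over all genes given an adjusted p. Zbtb16, a zinc finger repressor, stood 3.06 ± 0.21 higher on the log2 scale (SE; adjusted p = 2.07e-45 in DESeq2, edgeR adjusted p = 0.00142), and Fkbp5, a co-chaperone of the glucocorticoid receptor, stood 0.76 ± 0.13 higher (DESeq2 adjusted p = 1.42e-06, edgeR adjusted p = 0.114). The others were Errfi1 (0.56), an inhibitor of the EGF receptor, Ddit4 (0.64), an inhibitor of mTORC1, Sult1a1 (0.65), a sulfotransferase, and Pdk4 (0.27), an inhibitor of pyruvate dehydrogenase. Ddit4 and Pdk4 each lost the call in 7 of 13 alternatives. For Ddit4 these were edgeR, total-count scaling (adjusted p = 0.294 in DESeq2), no filter on low counts (0.212) and leaving out control replicate 2 (0.556) or Klf4-alphaKO replicate 1 (0.15), 2 (0.141) or 3 (0.534). For Pdk4 they were edgeR, the replicate number as a block (adjusted p = 0.0533 in DESeq2), halved counts (0.0571) and leaving out control replicate 1 (0.128) or Klf4-alphaKO replicate 1 (0.0912), 2 (0.0894) or 3 (0.224). Tsc22d3, Per1, Klf9, Sgk1, Dusp1 and Cebpd did not pass, with log2 fold changes of 0.35, -0.17, -0.20, 0.36, 0.09 and -0.25. In edgeR, Zbtb16 was the 1 gene of the 12 that passed. The part of glucocorticoid signals in the metallothionein result was not tested.

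Oxidative stress and immediate early genes were compared as well. Of 8 genes of the NRF2 response 1 was higher, Hmox1, which degrades heme (log2 fold change 0.71 ± 0.16 SE; DESeq2 adjusted p = 0.00122, edgeR adjusted p = 0.177), and of 11 immediate early genes 1 was higher, Fosb (0.51 ± 0.12; DESeq2 adjusted p = 0.00286, edgeR adjusted p = 0.187). Median log2 fold changes were 0.03 for the NRF2 list and 0.17 for the immediate early list. Of 12 acute phase and interleukin-6 response genes, 6 were given an adjusted p and none passed, with a median of 0.28. They were Lcn2 (1.52), Socs3 (0.53), Steap4 (0.39), Junb (0.17), Cebpb (0.02) and Il1r1 (-0.19). Lcn2, Socs3 and Steap4 had adjusted p of 0.0865, 0.0692 and 0.084 in DESeq2. The liver-made genes Saa1, Saa2, Hp and Orm1 of that list were highest in Klf4-alphaKO replicate 1, at 1609, 1305, 4437 and 767 normalized counts. The part of inflammatory signals in the metallothionein result was not tested.

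Genes whose profile over the 6 libraries was most like that of Mt1 were found among 15810 genes with a mean of at least 50 normalized counts. Likeness was the root mean square difference of log2(normalized count + 1), centred on each gene's mean, for which the median gene had 0.30. The 5 closest were 1810019D21Rik (0.045), Mrc2 (0.047), Epha1 (0.060), Rfc4 (0.062) and S1pr2 (0.065), all far lower in level, and Mt2 was in position 11 at 0.083. Mrc2 encodes a collagen receptor of fibroblasts and was at 416, 428 and 384 normalized counts in controls and 555, 531 and 682 in Klf4-alphaKO. The genes closest to Mt2 were Mrc2 (0.067), Igsf10 (0.074), the collagen gene Col6a2 (0.076), S1pr2 (0.079) and 1810019D21Rik (0.081), with Mt1 in position 6. Epha1, Rfc4 and S1pr2 did not pass in DESeq2 (adjusted p = 0.108, 0.489 and 0.202). In edgeR none of the genes named in this paragraph passed except Mt2.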

How the data were processed

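Polyadenylated RNA of 6 islet libraries was sequenced. The authors deposited 1 table of raw counts per gene for all libraries; the submitters' processing notes name FastQC, STAR, featureCounts, DESeq2 and the build mm10, and the deposited file's name records cutadapt, but settings for strand, read pairs and annotation are not given in the sources used here. All 55536 identifiers and symbols match GENCODE M21 (GRCm38), which gave coordinates and exon lengths. Each column's name gave its group and replicate. The design text states DESeq2 without batch correction, so DESeq2 1.42.0 in R 4.3.3 was the main test (size factors, Wald test, unshrunken log2 fold changes, genes with at least 10 counts in total, Benjamini-Hochberg adjusted p under 0.05 over all genes), with edgeR 4.0.16 as an alternative; both were checked on simulated counts. Pairs of replicates differed by 40 to 120 times the chi-square expected from counting, so none was counted as 1 library. The 10 genes and the lists were chosen with earlier results of these data known. Named beside the 10 were family genes with a mean of at least 1000 normalized counts, Slc30a8, other listed genes past the threshold, and the 5 genes most like Mt1. The 5 genes closest to Mt2, the genes described as not passing in a list, and the ratios were chosen after their values were seen. RPKM was computed from raw counts, merged exon length and the library total. Promoter sequences are from RefSeq (GRCm38.p6). Alternatives were other scaling, filters on low counts, the replicate number as a block, an adjusted p of 0.1, each library left out and, chosen after seeing the even counts, halved counts.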

Additional observations from a re-analysis of the deposited data

How the results depend on the processing

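Of the 10 genes, 2 passed in DESeq2 and in 13 of its alternatives, and in edgeR 1 passed, Mt2. The count of 2 held under TMM factors, total-count scaling, no filter, a stricter filter (at least 10 counts in at least 3 libraries), an adjusted p of 0.1, halved counts and each library left out in turn (2 to 2). Log2 fold changes of Mt1 ran from 0.38 to 0.53 and of Mt2 from 0.54 to 0.70 when a library was left out, both lowest without Klf4-alphaKO replicate 3. Over 12 alternatives other than the block the adjusted p of Mt1 ran from 0.000102 to 0.166 and of Mt2 from 1.81e-08 to 0.0496. With the replicate number as a block, 2 of the 10 passed, Mt1 at 0.48 and Mt2 at 0.63, and 405 genes passed in all. The numbers pair no libraries in the labels, and deviations of same-numbered libraries correlated at -0.048, -0.059 and 0.01. Over 30 single genes and 13 alternatives, 353 of 390 values gave the same call and sign, 28 lost the call, 1 gained it (Slc39a9 without control replicate 3) and 8 changed sign; the cause was not tested. The reversed values, none past the threshold, were 0.16 for Mt3 and 0.0023 for Slc30a7 without control replicate 3, 0.0003 for Mtf1 without control replicate 1, 0.0197 for Slc30a8 without Klf4-alphaKO replicate 3, -0.0063 for Slc39a1 without control replicate 2, and -0.0205, -0.0185 and -0.0678 for Slc39a14 without control replicate 2, control replicate 3 and Klf4-alphaKO replicate 1. With each library left out, values ran from -0.3492 to 0.1594 for Mt3, -0.0682 to 0.0003 for Mtf1, -0.1642 to 0.0023 for Slc30a7, -0.0678 to 0.0507 for Slc39a14, -0.1353 to 0.0197 for Slc30a8 and -0.0063 to 0.0824 for Slc39a1. The count of all genes past the threshold was 29 in edgeR and, over the DESeq2 fits that left out a library, ran from 153 without Klf4-alphaKO replicate 1 to 952 without control replicate 3. Depth limits Mt3 and Slc39a8, at 98 to 220 raw counts, where mates may have been counted singly.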
